A study of Caenorhabditis elegans with 2 samples.

Results

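Small nucleolar RNA (snoRNA) genes were examined as a class for recovery of the tagged protein F13C5.2, a bromodomain-containing protein in the RefSeq annotation, in early Caenorhabditis elegans embryos. The members were all 346 genes of biotype snoRNA on the 6 nuclear chromosomes in Ensembl release 115 (assembly WBcel235, which is ce11), of 46890 annotated genes in all. Each was placed in 1 of 4 position classes: 145 genes lay inside an intron of a protein-coding gene on the same strand, 27 inside such an intron on the opposite strand, 124 outside any protein-coding gene, and 50 overlapped a coding gene's exon. Of the 346, 185 lay over 1000 bp from any protein-coding 5′ end and 161 within that distance. A member was counted as having a summit when the highest point of a peak in the authors' optimal list from the irreproducible discovery rate (IDR) procedure lay within 500 bp of the gene.

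The mixed-sex embryos were collected 1 hour after their synchronization by egg bleaching. The strain, OP605, has the genotype unc-119(tm4063) III; wgIs605. Every sample carried the transgene for F13C5.2 with a C-terminal GFP-FLAG tag, and chromatin was precipitated with an antibody to GFP. There was 1 group of 2 biological replicates, numbered 2 and 3, each called against 2 control alignments, and no second genotype, stage or untagged group. The embryos were whole organisms, so a site bound in few cells and a site bound weakly in all cells cannot be told apart. With 1 group the design allows no test between conditions. Shares are given with 95% Wilson intervals, which cover counting error only, and the read depth behind the peaks is unknown.

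snoRNAs guide chemical modification of ribosomal and spliceosomal RNA. Box C/D snoRNAs direct methylation of the ribose by fibrillarin, and box H/ACA snoRNAs direct the conversion of uridine to pseudouridine by dyskerin. In vertebrates most are processed from introns of host transcripts, whereas many in yeast have promoters of their own. A few small RNA genes, among them the snoRNA gene SNR52 of Saccharomyces cerevisiae, are transcribed by RNA polymerase III from an A box and a B box, the same internal promoter elements that tRNA genes use to recruit the factor TFIIIC. Spliceosomal RNA genes instead carry an upstream element bound by the complex SNAPc.

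Sequence just upstream of the genes is shown first, because most summits lay there. The A box was searched as TGGCNNAGT and the B box as GTTCGANNC, on the gene's strand in the 150 bp before its 5′ end, with up to 1 mismatch in each and with box starts 25 to 80 bp apart. The lines give the 80 bases before the 5′ end, read from the RefSeq genome (ce11) in the direction of the gene, for the 6 members of highest IDR signal that carried both boxes, among genes on 5 of the 6 chromosomes whose window met no coding exon. Capitals mark the A box and the B box.
W03C9.9: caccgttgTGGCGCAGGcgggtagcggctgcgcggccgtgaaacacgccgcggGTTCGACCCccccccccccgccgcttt
Y43F8C.22: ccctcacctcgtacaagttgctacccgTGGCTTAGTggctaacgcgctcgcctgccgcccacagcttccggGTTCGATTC
T03F7.8: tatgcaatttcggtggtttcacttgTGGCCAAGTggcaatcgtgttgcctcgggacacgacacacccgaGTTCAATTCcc
C04G6.12: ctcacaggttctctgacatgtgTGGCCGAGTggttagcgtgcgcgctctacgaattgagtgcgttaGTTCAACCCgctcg
Y75B12B.12: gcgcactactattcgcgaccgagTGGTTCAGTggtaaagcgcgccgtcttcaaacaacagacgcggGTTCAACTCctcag
F55A11.10: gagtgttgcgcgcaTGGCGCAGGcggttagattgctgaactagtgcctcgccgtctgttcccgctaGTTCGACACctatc
The windows lie at chrII:11960818-11960897, plus strand for W03C9.9; chrV:19643188-19643267, minus strand for Y43F8C.22; chrV:11314178-11314257, plus strand for T03F7.8. The others lie at chrII:5105232-5105311 on the minus strand for C04G6.12, chrV:15191094-15191173 on the minus strand for Y75B12B.12, chrV:11782912-11782991 on the plus strand for F55A11.10.

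For comparison, the tRNA gene WBGene00023216 (chrX:3371422-3371493, minus strand), which had a summit of signal 171 at 12 bp past its 5′ end, carries exact A and B boxes inside the gene, in capitals.
WBGene00023216: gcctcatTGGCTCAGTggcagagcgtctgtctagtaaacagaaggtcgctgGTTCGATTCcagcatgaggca
The 6 upstream windows hold the same pair of words, with starts 43 to 52 bp apart. The B box starts at -27 bp from the snoRNA 5′ end in W03C9.9 and at -14 to -9 bp in the other five. A carrier of the pair without an IDR summit, F19H8.6 (window at chrII:14617063-14617142, plus strand), reads as follows.
F19H8.6: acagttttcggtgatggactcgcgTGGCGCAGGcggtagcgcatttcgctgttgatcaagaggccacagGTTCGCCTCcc
The snoRNA encoded at the strongest site, W03C9.9, is of C/D type (chrII:11960898-11960959, plus strand), and its box C and box D are in capitals.
W03C9.9: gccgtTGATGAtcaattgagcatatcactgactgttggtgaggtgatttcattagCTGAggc

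Another upstream element was read from the words that recur before snoRNA genes. It consists of AACNCG, 4 to 7 further bases and TGTCNG on the gene's strand. Because its letters were chosen after these genes had been examined, its frequency and its share of summits here are descriptions. The 4 carriers of highest signal, chosen as above, are shown with both words in capitals.
ZK994.7: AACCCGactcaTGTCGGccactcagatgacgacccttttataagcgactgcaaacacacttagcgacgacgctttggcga
C08D8.3: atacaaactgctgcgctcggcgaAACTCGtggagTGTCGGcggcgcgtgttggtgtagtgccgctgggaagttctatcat
Y53F4B.47: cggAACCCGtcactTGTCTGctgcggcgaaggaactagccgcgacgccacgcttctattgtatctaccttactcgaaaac
C16D9.11: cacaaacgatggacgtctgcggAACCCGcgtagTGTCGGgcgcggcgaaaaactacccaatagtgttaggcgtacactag
These windows lie at chrV:8500499-8500578 on the plus strand for ZK994.7, chrV:8349028-8349107 on the plus strand for C08D8.3, chrII:15025894-15025973 on the minus strand for Y53F4B.47, chrV:8228970-8229049 on the minus strand for C16D9.11. The first word begins at -80 bp in ZK994.7, -57 bp in C08D8.3, -77 bp in Y53F4B.47 and -58 bp in C16D9.11.

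The A/B box pair was present upstream of 32 of the 346 snoRNA genes (9.25%), against 58 of 19973 protein-coding genes (0.29%) in equally long windows and 43 of 8448 other non-coding genes (0.509%). On the opposite strand it was found at 2 snoRNA genes, neither with a summit. The spacing was narrow: the starts of the boxes lay a median of 44 bp apart (interquartile range 44 to 45), and 27 of the 32 pairs fell at 43 to 46 bp, against 7 of the 58 pairs before coding genes. That range was drawn around the spacing of the snoRNA pairs themselves, so a higher share there was built in. In the 464 tRNA genes that held the pair inside the gene, the median distance was 45 bp (interquartile range 44 to 54). The position was narrow as well, with the A box starting at a median of -58.5 bp and the B box at a median of -14 bp from the snoRNA 5′ end. The second element stood upstream of 34 snoRNA genes (9.83%), against 14 coding genes (0.0701%) and 38 of the 8448 other non-coding genes (0.45%). The 8448 are the genes of biotype ncRNA, lincRNA, miRNA, snRNA and antisense RNA, so tRNA genes and other biotypes were left out. They include the 129 snRNA genes, of which 21 held the second element (16.3%). Before snoRNA genes the second element began at a median of -59 bp (interquartile range -64.75 to -58). No snoRNA gene held both elements. A match of letters is a description and does not show that a factor binds there.

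**Figure D1:**
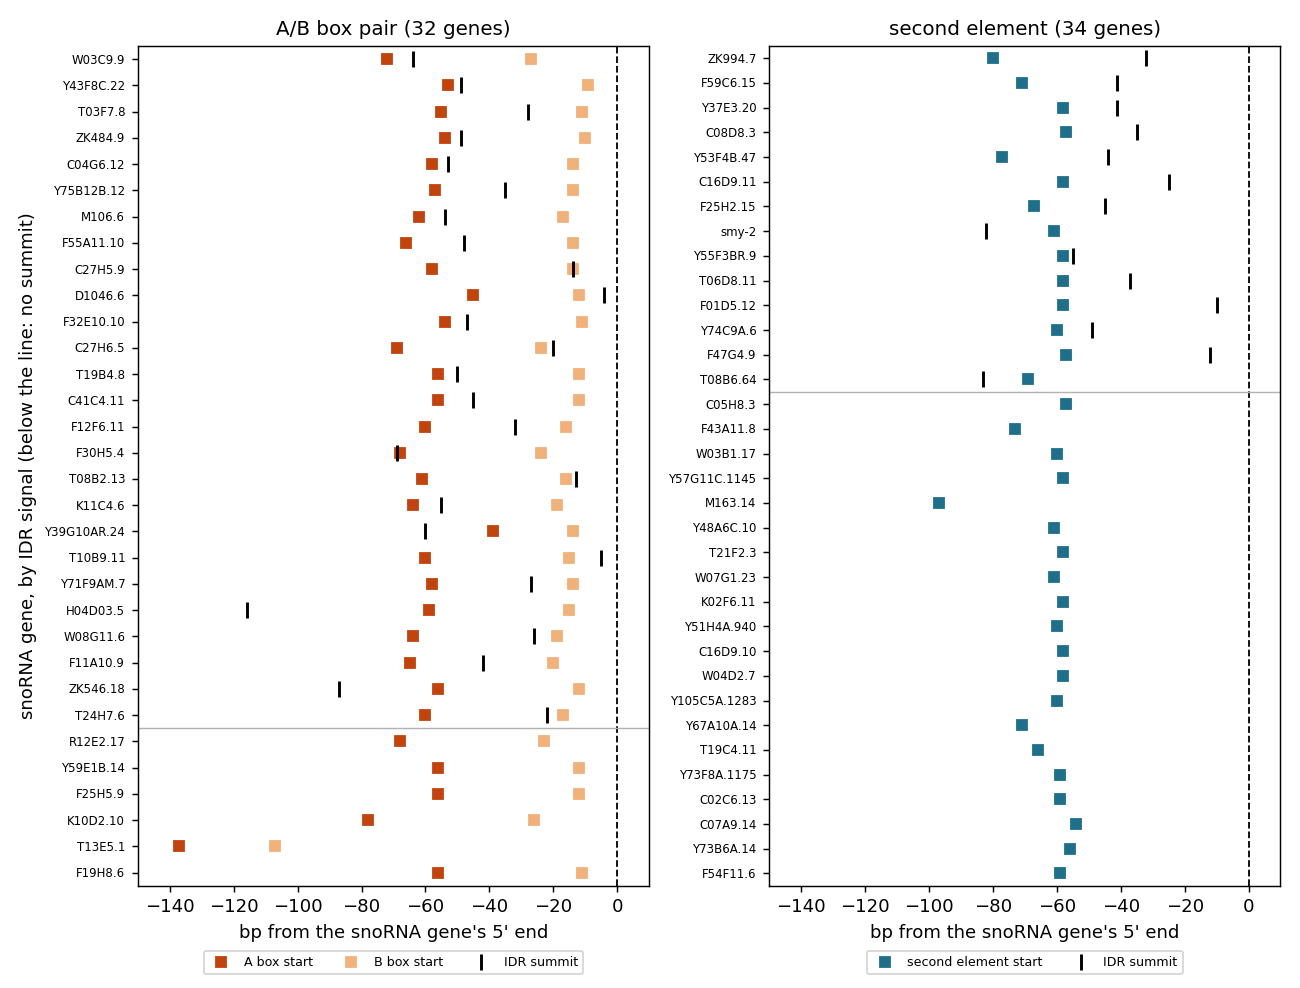
Position of the A box and B box starts (left, 32 genes) and of the second element's start (right, 34 genes), in bp from the snoRNA 5′ end, with the IDR summit as a black tick. Rows are genes ordered by IDR signal, and rows under the grey line have no summit. The boxes line up near -58.5 and -14 bp and most ticks fall between them.

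The tagged protein was recovered at 88 of the 346 snoRNA genes, which is 25.4% (interval 21.1 to 30.3). Applied to every position of the genome, the same distance rule met a summit at 2.04% of positions. Among other small RNA genes it met one at 31.7% of the 612 tRNA genes and at 14% of the 129 snRNA genes. The 88 genes drew on 86 summits, since C27H5.9 and C27H5.10, and likewise C51F7.3 and C51F7.4, share 1 each. Only 4 members had a tRNA or snRNA gene within 500 bp, and 1 of these, smy-2, had a summit.

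Summits were found in every position class. Inside same-strand introns 34 of 145 snoRNA genes had one (23.4%, interval 17.3 to 31.0), and inside opposite-strand introns 9 of 27 did (33.3%, interval 18.6 to 52.2). Outside coding genes 38 of 124 had one (30.6%, interval 23.2 to 39.2), and among the genes that overlap a coding exon 7 of 50 (14%, interval 6.95 to 26.2). These 4 intervals overlap one another. For same-strand intronic genes over 1000 bp from a coding 5′ end the share was 24.6% (17 of 69), against 0.827% of coding intron positions at such distances. Within 1000 bp it was 22.4% (17 of 76), against 2.16% of intron positions there. The order of the near and far genes depends on the distance rule: with summits within 200 bp the shares were 23.2% far and 13.2% near, and with 1000 bp they were 26.1% far and 46.1% near. Outside coding genes, 24.3% of the genes over 1000 bp away had a summit (18 of 74), against 1.44% of such positions, and 40% of those within 1000 bp (20 of 50), against 5.37%. Over all classes, 40 of 185 snoRNA genes far from a coding 5′ end had a summit (21.6%), as did 48 of the 161 nearer ones (29.8%).

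**Figure D2:**
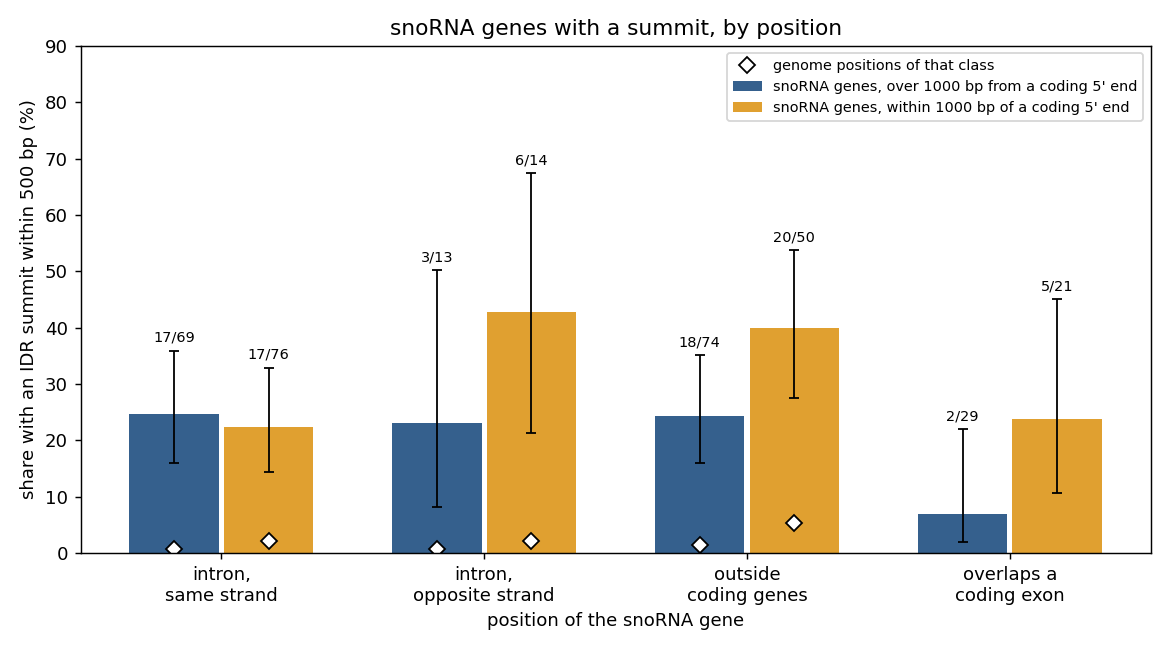
Share of snoRNA genes with an IDR summit within 500 bp (%), by position class and by distance from a protein-coding 5′ end. Error bars are 95% Wilson intervals, fractions are genes with a summit over all genes of the class, and white diamonds give the share of genome positions of the same kind. Every bar with a diamond stands above it.

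The summits concentrated immediately before the genes. Of the 88, 65 had the summit 1 to 100 bp upstream of the 5′ end, with a median offset of -45 bp (interquartile range -55 to -32). That zone held a summit at 18.8% of all 346 snoRNA genes, against 1.03% of 19973 protein-coding genes and 8.66% of tRNA genes, whose promoter boxes are internal. The zone was chosen after the snoRNA summits had been seen, so these shares are a description and do not set the gene classes apart. A further 17 summits lay farther upstream, 2 lay inside the gene (C51F7.4 and smy-3) and 4 lay downstream (C27H5.10, B0334.12, K02F3.15 and W01A11.21). The median IDR signal was 179 in the 100 bp zone, 111 farther upstream, 267.6 for the 2 in the gene and 185 for the 4 downstream, on the authors' score, whose median over all IDR peaks was 107. A coding promoter window, from 1000 bp upstream to 200 bp downstream of a coding 5′ end, held 22 of the 65 near summits and 14 of the 17 farther ones. In all, 78 of the 88 summits were nearer to the snoRNA 5′ end than to any coding 5′ end, among them 38 of the 48 within 1000 bp of a coding 5′ end.

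**Figure D3:**
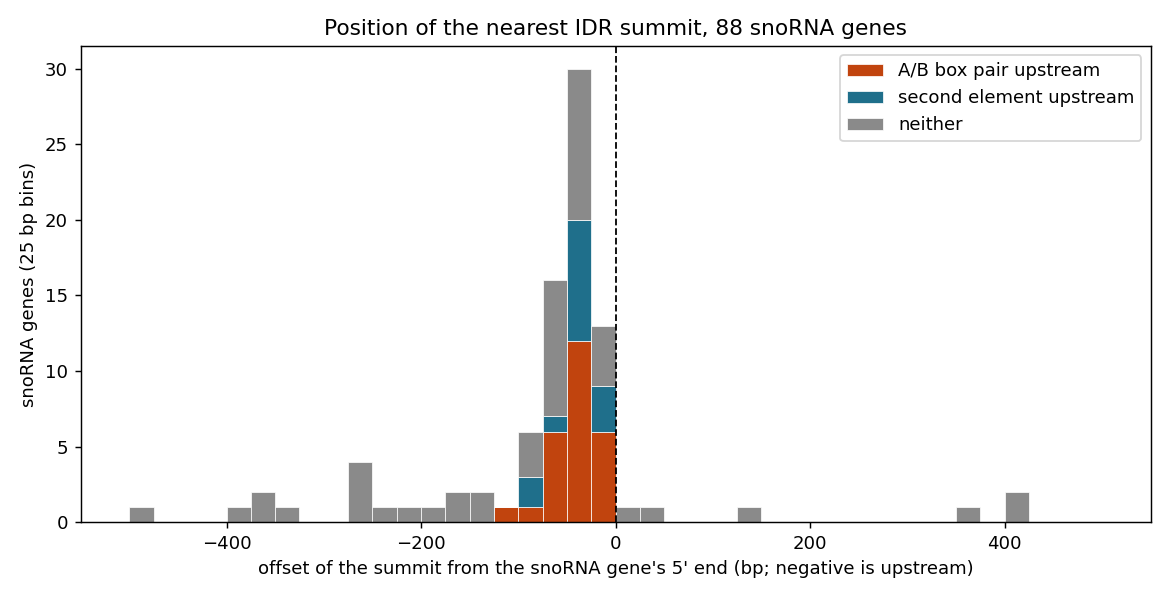
Offset of the nearest IDR summit from the snoRNA 5′ end (bp, negative is upstream) for the 88 genes with a summit, in 25 bp bins, coloured by the element found in the 150 bp upstream. The bars peak just before the 5′ end, and the genes with either element fall within the first 100 bp upstream, apart from 1 gene with a pair.

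Genes carrying the A/B box pair had the highest share of summits. A summit was found at 26 of the 32 (81.3%, interval 64.7 to 91.1), at 14 of the 34 with the second element (41.2%, interval 26.4 to 57.8) and at 48 of the 280 with neither (17.1%, interval 13.2 to 22.0). For the pair the share was similar wherever the gene lay: 12 of 15 in same-strand introns, 5 of 5 in opposite-strand introns and 9 of 12 outside coding genes, and 14 of 18 far from coding 5′ ends beside 12 of 14 near them. Of the 26 summits, 21 lay between the start of the A box and the end of the B box. The exceptions included H04D03.5, at -116 bp, and ZK546.18, at -87 bp. The rule for the pair was added after the data were seen, as was the second element. The shares by element and their intervals are therefore descriptions. The number of carriers depends on the mismatches allowed, a setting also chosen after the data were seen. With exact boxes 4 of 5 carriers had a summit, and with 2 mismatches in the A box and 1 in the B box 36 of 58 did.

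The median signal was also highest at the pair carriers. All 26 pair carriers with a summit exceeded the median IDR signal, with a lowest value of 114, a median of 223 and a highest of 611. The 14 carriers of the second element ran from 81.4 to 371 with a median of 111, and 8 of them exceeded the IDR median. ZK994.7 stood alone at 371, and the next highest of the 14 was 188. The 48 genes with a summit and neither element had a median of 144. Among these, the 26 whose summit lay 1 to 100 bp upstream, where 25 of the 26 pair summits lay, had a median of 189.8. Summits of the second element's carriers lay at a median of -41 bp, and 12 of the 14 lay downstream of the element's start.

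**Figure D4:**
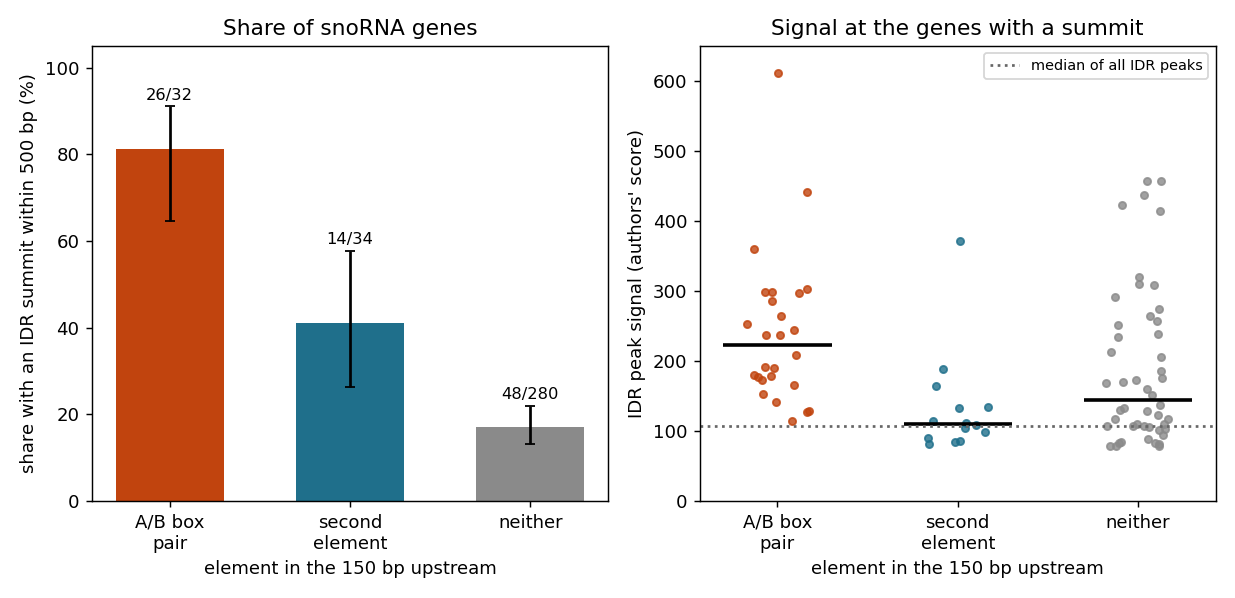
Left, share of snoRNA genes with an IDR summit (%, 95% Wilson intervals), by the element in the 150 bp upstream. Right, IDR signal (authors' score) of the genes with a summit, with the median as a line and the median of all IDR peaks dotted. The pair stands highest in both panels, at 81.3% of genes and a median signal of 223.

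Single exact boxes were also found more often at genes with a summit. In the window from 150 bp upstream to the 3′ end, on either strand, an exact B box was found at 18 of 88 genes with a summit (20.5%) and 12 of 258 without (4.65%), and in 1.64% of equally wide windows at coding 5′ ends. An exact A box was found at 15 genes with a summit (17.0%) and 14 without (5.43%), and in 2.06% of the coding windows. The word TATAAA, which resembles a TATA box, stood at nearly equal shares, being found at 19.3% of genes with a summit, at 19.0% of genes without and in 34.3% of coding windows. Of upstream words of 8 letters counted on both strands, CTGCGCCA, the complement of TGGCGCAG at the A box, showed the greatest difference, with 12 of 88 genes with a summit and 6 of 258 without.

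The strongest members, by IDR signal, were spread over all classes. W03C9.9 (chrII:11960898-11960959), a C/D-type gene outside coding genes, had a signal of 274 in replicate 2 and 338 in replicate 3, where it ranked 2 and 1, and 611 in the IDR list. The pair of neighbours C51F7.3 and C51F7.4, at the gene frm-7, shared a summit of 221 in replicate 2 and 239 in replicate 3. Y43F8C.22, an H/ACA-type gene in an intron of Y43F8C.7, reached 187 in replicate 2 and 256 in replicate 3. T06C12.16, a C/D-type gene 1282 bp from the nearest coding 5′ end, had 219 in each replicate. These sites ranked in the top 20 of both replicate lists, so both libraries placed them among their strongest regions.

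Next came ZK265.10, with 190 in replicate 2 and 233 in replicate 3, and T02E1.9, which overlaps spe-12, with 214 in replicate 2 and 208 in replicate 3. ZK994.7 lies in an intron of pxn-1, 5690 bp from a coding 5′ end, and had 185 in replicate 2 and 178 in replicate 3. T03F7.8, opposite to the gene cutl-18 within its intron, had 152 in replicate 2 and 213 in replicate 3. H09I01.2, a C/D-type gene 6839 bp from the nearest coding 5′ end, had 148 in replicate 2 and 168 in replicate 3. Distance to a coding 5′ end varied widely among the strongest sites. Of the 26 genes with a summit 1 to 100 bp upstream and neither element, 7 held an A/B pair once 2 and 1 mismatches were allowed. The 26, which include C51F7.3, T06C12.16, ZK265.10 and H09I01.2, had a median signal of 189.8.

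Both chemical types of snoRNA were represented. Genes were called C/D type when the first 25 bases held TGATGA with at most 1 mismatch and the last 25 held CTGA, and H/ACA type when ACA stood 2 to 4 bases before the 3′ end, which left 229 unassigned. A summit was found at 20 of 44 C/D-type genes (45.5%, interval 31.7 to 59.9), at 22 of 73 H/ACA-type genes (30.1%, interval 20.8 to 41.4) and at 46 of the 229 others (20.1%, interval 15.4 to 25.8). The C/D and H/ACA intervals overlap. All 20 C/D-type summits lay 1 to 100 bp upstream, as did 14 of the 22 H/ACA-type ones. Among pair carriers the types were alike in count, with 9 of 11 C/D-type and 8 of 10 H/ACA-type genes having a summit. The second element stood before 8 C/D-type genes and 1 H/ACA-type gene. H/ACA-type genes were the more often intronic, with 53 of 73 in same-strand introns, against 21 of 44 C/D-type genes.

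Most host genes with several snoRNA genes had a summit in their promoter window, and few of their snoRNA genes had one within 500 bp. The 15 hosts with 2 or more snoRNA genes on their own strand held 34 snoRNA genes, and 13 of the 15 had an IDR summit in their promoter window (86.7%), against 8.51% of all protein-coding genes. A window can hold the summit of a neighbour: the host's own 5′ end was the nearest coding 5′ end in 9 of the 13, and in the other 4 it was that of npp-3 (at top-2), ska-3 (at rps-12), snt-2 (at rps-29) or E01A2.1 (at akir-1). Of their 34 snoRNA genes, 3 had a summit within 500 bp, none had one 1 to 100 bp upstream and none carried either element. The count of 3 depends on the distance rule. C06A1.9 (517 bp), Y37E3.21 (521 bp), R151.11 (532 bp) and K11H12.13 (553 bp) lay just past it, each with the summit in its host's promoter window. The 112 hosts with 1 snoRNA gene had a promoter summit in 29 cases (25.9%), and 25 of their 111 snoRNA genes had a summit 1 to 100 bp upstream (22.5%), with 15 carrying the A/B pair and 12 the second element. Some host promoters are close to the snoRNA, so a summit can count for both. After summits within 500 bp of the snoRNA gene were set aside, 30 of all 127 same-strand hosts had a promoter summit, against 42 before. For the 25 intronic snoRNA genes with a summit of their own, the host window held another summit in 4 cases.

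The hosts of several snoRNA genes include rpl-15, with a signal of 416 in the window (IDR rank 12), and rps-12, with 251, both genes of ribosomal proteins. cdc-48.1, which encodes an AAA ATPase that extracts proteins from complexes, had 376 (rank 15), top-2, for a DNA topoisomerase, had 137, and eef-1G, for a translation elongation factor subunit, had 138. prp-8, for a core spliceosome protein, had 102, and klp-19, for a kinesin, had 86.8. The 2 without a promoter summit were nol-56, which encodes a core protein of box C/D particles and hosts 4 snoRNA genes, and air-1, for an Aurora kinase. Ribosomal protein genes made up 13 of the 127 hosts and 10 of them had a summit in the window (76.9%), with the host's 5′ end nearest in 7. The share was 8.51% over all protein-coding genes. Ribosomal protein genes that host no snoRNA gene were not counted here, so the share cannot be tied to hosting. The 19 snoRNA genes of the 13 ribosomal protein hosts included 4 with a summit within 500 bp, all 243 to 494 bp upstream and in the host's promoter window. These were F54E7.10 in rps-12 (where the 5′ end of ska-3 is nearer), Y24D9A.9 in rpl-7A, D1007.20 in rpl-24.1 and F53G12.12 in rpl-7. Hosts on the opposite strand had a promoter summit in 3 of 26 cases (11.5%). The Wilson interval of that share includes the 8.51% of all protein-coding genes, so these hosts are not set apart from coding genes in general.

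The genes at the edge of the distance rule have such a summit in the host's window. F53G12.12 at 494 bp, D1007.20 at 380 bp and Y24D9A.9 at 371 bp were the outermost members counted, and C06A1.9 in cdc-48.1 at 517 bp, Y37E3.21 in Y37E3.8 at 521 bp and R151.11 in rpl-6 at 532 bp were the first not counted. All 6 lie in same-strand introns.

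Genes for proteins linked to snoRNAs were counted from lists chosen with earlier results of these data known. Of 13 genes of box C/D and H/ACA particles, their assembly and the nucleolus, 9 had a summit in a promoter window (69.2%), against 8.51% of all coding genes. Whether a neighbour's 5′ end lay nearer to these summits was not examined. The highest signals were at fib-1 (172), the fibrillarin methyltransferase, at Y48A6B.3 (161), at nol-58 (123), a C/D core protein, and at dao-5 (113), a nucleolar protein. dkc-1, the dyskerin pseudouridine synthase, had 95.5, the assembly ATPases ruvb-2 and ruvb-1 had 99.2 and 87.4, nola-3 had 83.8 and ncl-1, a repressor of nucleolar size, had 80.8. No summit was found for nol-56, snu-13, garr-1 and nucl-1. Of 10 annotated genes for SNAPc subunits and RNA polymerase III initiation (11 listed), 2 had a promoter summit: snpc-3.4 (87.0) and rpc-1 (79.2), the largest polymerase III subunit. None was found at snpc-4, tbp-1 or brf-1.

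Of the 33 snoRNA genes on X 1 had a summit, D2021.6 with a signal of 103, which is 3.03% (interval 0.537 to 15.3), against 87 of 313 on the autosomes (27.8%). Over all positions the same rule met a summit at 2.52% on X and 1.94% on the autosomes, at tRNA genes 33.3% on X and 30.4% on the autosomes, and in coding promoter windows 8.9% on X and 8.45% on the autosomes. The difference between X and the autosomes was not tested. By autosome the snoRNA shares ran from 22.2% (12 of 54, chromosome III) to 32.7% (18 of 55, chromosome V). X carried 1 gene with an A/B pair, Y59E1B.14, and 3 with the second element, none of them with a summit. On chromosome V all 7 pair carriers had one.

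Some genes absent from the IDR list had an entry in a longer pooled list. That list was deposited as peaks and background for input to the IDR procedure, so an entry in it need not be a peak. Of the 258 genes without an IDR summit, 129 had an entry within 500 bp in this pooled list of 30000 regions and 30 had one among its top 5000. Over all snoRNA genes, including the 88 with an IDR summit, the pooled list met 62.7%, with distance taken from the whole gene. It met 32.6% of coding 5′ ends, with distance taken from the 5′ end alone, so the 2 shares follow unlike rules. All IDR peaks were the highest-ranked peaks of that pooled list, and the boundary between counted and uncounted genes is a signal of 77.9. The nearest genes below it were C17D12.8, with a pooled signal of 76.9, W04D2.7, a carrier of the second element, with 75.9, and W01H2.11 and Y102A11A.16 on X, with 75.3 and 75.2. Of the 6 pair carriers without an IDR summit, 4 had an entry in the pooled list. Their signals were 60.7 at F25H5.9, 50.7 at R12E2.17, 37.2 at K10D2.10 and 20.4 (rank 24368) at F19H8.6, whose sequence is shown above.

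The replicates were close in which snoRNA genes they marked. Among as many of the strongest peaks of each list as the IDR list holds, replicate 2 met 81 snoRNA genes and replicate 3 met 91, with 75 in both. Of the 88 genes, 74 were met by both, 4 by replicate 2 alone, 8 by replicate 3 alone and 2 by neither. Across the 84 summits with a peak in both lists the signals had a Spearman correlation of 0.802, a description over sites that share the 2 libraries. It was 0.84 over 26 pair sites, 0.786 over 45 with neither element and 0.28 over 13 with the second element. Summits differed in position by a median of 29.5 bp, and 65 of 84 lay within 50 bp of each other. Of the pair carriers, 25 of 26 were in that top set of replicate 2 and all 26 in that of replicate 3, the exception being ZK546.18 with 32.0 in replicate 2 and 99.4 in replicate 3. The 88 genes and 84 summits come from an IDR list derived from these same 2 replicates. Agreement between the replicates at them is therefore partly set by that choice.

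**Figure D5:**
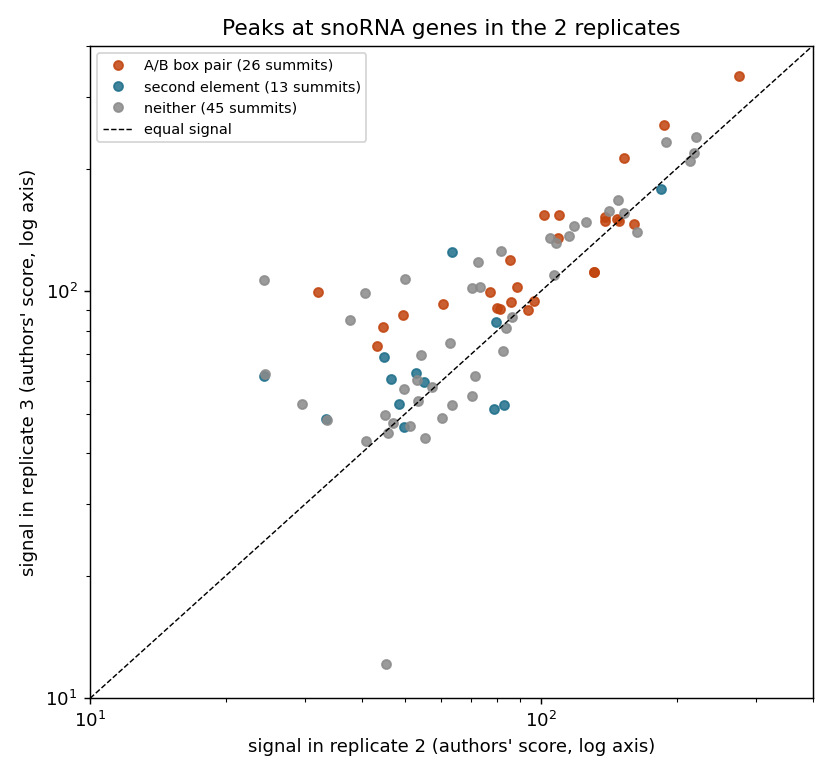
Signal of the peaks at snoRNA genes in replicate 2 and replicate 3 (authors' score, log axes), 1 point per summit, for the 84 summits with a peak in both lists. Points scatter along the dashed line of equal signal. The highest point in both replicates is W03C9.9, which has an A/B pair, and points with neither element are among the next highest.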

How the data were processed

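ChIP-seq peak lists on ce11 were used, for 2 biological replicates and for both together. Per the deposited file descriptions, the authors called each list against 2 control alignments and derived the optimal IDR list from them. For the aligner, the caller and the IDR threshold, names and values were not given in the sources used here. Each peak carries a signal score given by the authors on an unstated scale, used only to rank or describe peaks within 1 list, and a deposited −log10 q-value, not used because many peaks tie. Read depth is unknown. The ce10 lists were not used here.

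Summits were placed against Ensembl release 115 genes and the RefSeq genome with Python 3.11.15, numpy 2.4.6, pandas 2.3.3 and scipy 1.17.1, and the code was checked on simulated sequences. No test was run, since there is 1 group of 2 replicates. The members and lists were chosen with earlier results of these data known. Genes were named by signal: up to 10 per position class, up to 15 over 1000 bp from a coding 5′ end, those at the 500 bp edge, hosts of 2 or more snoRNA genes, summits in the top 50, up to 5 without a summit of highest pooled signal, and the protein lists. Other names (genes in small zones, element carriers without a summit, X genes, sequences) were chosen after their values were seen. Alternatives changed distances, windows, lists, box rules and replicates.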

Additional observations from a re-analysis of the deposited data

How the results depend on the processing

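Of 135 recomputed values over 32 results, 125 stayed within 1.5 times the count, the Wilson interval or the median's interval. The 88 genes became 74 with summits within 200 bp, 110 within 1000 bp, 67 with only the stronger 50% of IDR peaks, 91 without replicate 2 and 81 without replicate 3. The share of same-strand intronic genes within 1000 bp of a coding 5′ end became 13.2% with 200 bp and also 13.2% with peak overlap, and 46.1% with 1000 bp, while for those farther away it was 23.2% with 200 bp and 26.1% with 1000 bp. For genes outside introns within that distance it became 23.9% with the peaks of higher signal and 48.6% with a 500 bp coding distance. The median signal became 189.6 with the peaks of higher signal, by construction. TATAAA was found in 37.5% of genes with and 31.8% without a summit when the window began 300 bp upstream. The share of A/B pair carriers with a summit became 92.9% with an exact B box and 62.1% with 2 and 1 mismatches, and 81.3% without replicate 2 and 78.1% without replicate 3; these settings were chosen after seeing the data. The cause of these moves was not tested. No paired analysis was possible because there is only 1 group. Depth is unknown, so genes without a summit cannot be called unbound.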

Other observations

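Away from both snoRNA and tRNA genes the A/B box pair rarely met a summit. Over the 6 chromosomes, both strands, sites with the pair had an IDR summit within 100 bp at 32 of 56 loci by snoRNA genes and at 141 of 474 loci in tRNA genes (29.7%), against 57 of 9742 loci elsewhere (0.585%). Box starts could lie 25 to 80 bp apart, and the spacing was not matched between these groups. The share of all genome positions within 100 bp of a summit is not given, so the 0.585% has no background beside it.

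The second element was also found upstream of 21 of 129 snRNA genes (16.3%), of which 6 had a summit (28.6%), against 12 of the 108 snRNA genes without it (11.1%). No snRNA gene held the A/B pair upstream.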
